A study of Mus musculus with 6 samples.

Results

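The mouse zinc finger genes with symbols from Zfp900 to Zfp999 were described by their DNA methylation in germinal centre B cells with and without Tet2. Membership was decided by name: an autosomal gene qualified if its symbol was Zfp9 followed by 2 digits. Of the 20665 autosomal protein-coding genes in RefSeq's GRCm38.p6 gene table, 62 did. The rule itself was chosen with earlier results of these data known. The data are enhanced reduced representation bisulfite sequencing. Its libraries hold MspI fragments, which begin and end at CCGG, and the data give the percent of reads called C at each CpG. The 6 libraries came from germinal centre B cells isolated from the spleens of C57BL/6 mice. Of these, 3 carried wild-type Tet2 (WT) and 3 a Tet2 knock-out (KO), and the labels give no treatment for either group. The labels do not say how Tet2 was removed, in which cells it was removed, or how old the mice were.

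Zinc finger proteins of the KRAB type bind DNA through an array of zinc fingers, and their KRAB domain recruits the corepressor Trim28, which brings the histone methyltransferase Setdb1 and heterochromatin proteins to the bound site. Many of them silence retrotransposons, and their genes lie in clusters that grew by duplication, so that neighbours are often near-copies of each other. TET2 oxidises 5-methylcytosine, the first step of its removal, and bisulfite sequencing reads 5-methylcytosine and 5-hydroxymethylcytosine alike, so every level below is the sum of both. For most of these genes no function is known in detail. Exceptions are Zfp932, a repressor of endogenous retroviruses, and Zfp982, a factor of embryonic stem cells.

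The genes lay on 13 chromosomes, with 14 on chromosome 4, 13 on chromosome 17, 10 on chromosome 2 and 9 on chromosome 7. When genes with gaps of at most 1 Mb were joined, 42 of them fell into 6 clusters. The cluster on chromosome 4 held 14 genes (chr4:145510759-147849126), that on chromosome 17 held 10 (chr17:21565816-22867309) and that on chromosome 2 held 9 (chr2:175372034-178078425). Smaller groups of 4, 3 and 2 genes lay on chromosomes 7, 8 and 13.

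The sequences before the annotated starts of 7 genes, from the RefSeq promoter table for GRCm38.p6, show what the libraries could and could not read. Bases inside the gene span were left out. In the first 5, capitals mark the CpGs that were covered by at least 10 reads in all 6 libraries. Zfp961 (chr8:71950816-71951047, plus strand) and Zfp946 (chr17:22423952-22424181, plus strand) are examples of unmethylated starts, Zfp982 (chr4:147442864-147443113, plus strand) and Zfp951 (chr5:104860158-104860277, minus strand) of partly methylated ones, and Zfp977 (chr7:42592546-42592795, minus strand) of a methylated one. In the last sequence, which Zfp966 (chr2:175931101-175931350, minus strand) and Zfp967 (chr2:176520754-176521003, plus strand) share base for base, no CpG was covered and capitals mark CCGG instead.
Zfp961: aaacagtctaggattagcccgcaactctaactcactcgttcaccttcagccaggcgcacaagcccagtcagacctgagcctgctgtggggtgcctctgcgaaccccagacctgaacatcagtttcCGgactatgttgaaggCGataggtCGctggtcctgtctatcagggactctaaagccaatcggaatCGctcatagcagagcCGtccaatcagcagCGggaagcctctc
Zfp946: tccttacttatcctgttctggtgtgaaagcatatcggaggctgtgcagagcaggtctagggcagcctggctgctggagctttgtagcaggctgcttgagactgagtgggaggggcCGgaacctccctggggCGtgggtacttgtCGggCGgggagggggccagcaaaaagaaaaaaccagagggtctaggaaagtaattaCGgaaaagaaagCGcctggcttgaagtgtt
Zfp982: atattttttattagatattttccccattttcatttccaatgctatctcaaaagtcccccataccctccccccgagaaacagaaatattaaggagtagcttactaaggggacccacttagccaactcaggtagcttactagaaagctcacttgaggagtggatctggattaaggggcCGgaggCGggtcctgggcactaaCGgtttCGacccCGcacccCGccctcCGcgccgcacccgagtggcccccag
Zfp951: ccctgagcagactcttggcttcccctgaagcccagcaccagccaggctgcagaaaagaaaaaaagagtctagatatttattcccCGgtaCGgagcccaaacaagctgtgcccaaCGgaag
Zfp977: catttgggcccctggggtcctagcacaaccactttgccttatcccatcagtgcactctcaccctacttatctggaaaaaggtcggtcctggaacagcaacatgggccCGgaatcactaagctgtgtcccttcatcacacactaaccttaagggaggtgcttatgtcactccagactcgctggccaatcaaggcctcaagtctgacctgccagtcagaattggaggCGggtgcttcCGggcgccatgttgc
Zfp966 and Zfp967: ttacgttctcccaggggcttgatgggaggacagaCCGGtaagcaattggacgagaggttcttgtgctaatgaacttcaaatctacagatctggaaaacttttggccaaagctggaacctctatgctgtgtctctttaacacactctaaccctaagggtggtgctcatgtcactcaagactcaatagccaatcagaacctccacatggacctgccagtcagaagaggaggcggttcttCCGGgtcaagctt

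The capitals stand for very different levels. At the 6 covered CpGs of the Zfp961 sequence the mean level was 0.0233% in WT and 0.0292% in KO, with no CpG above 0.0875%. At the 6 of Zfp946 it was 0.288% and 0.263%. The 7 covered CpGs of Zfp982 averaged 20.2% in both groups and ranged from 15.4% to 24.6%. The 3 of Zfp951 averaged 37.8% and 35.4%, and the 3 of Zfp977 averaged 94.3% and 95.2%.

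At the 62 genes, 793 CpG positions lay within 1 kb of the gene span and had 10 or more reads in each of the 6 libraries, as did 1433419 autosomal positions in all. The cytosines on either strand of a CpG are listed and counted as separate positions. Another 278 positions were listed in some libraries only, of which 1 was present in all KO and no WT libraries and 0 the other way round. For 43 genes at least 1 position was covered, and for 19 none was. Of these 19, Zfp968, Zfp965, Zfp966, Zfp967, Zfp973 and Zfp972 lie in the chromosome 2 cluster and Zfp990, Zfp980, Zfp987, Zfp991, Zfp988, Zfp985 and Zfp979 in the chromosome 4 cluster. The others are Zfp940, Zfp976, Zfp930, Zfp963, Zfp953 and Zfp948. In 13 of the 19 no library listed any position. The cluster on chromosome 17 was the opposite case, with 9 of 10 genes covered.

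Each gene was divided into its CpG-denser end, a window of 1 kb around the annotated end with the larger number of covered CpGs, in each direction, and the rest of the gene with its 1 kb flanks. The denser end was the annotated start in all 30 genes that had a covered CpG at an end and a known strand. A level was formed by adding reads over CpGs where at least 3 were covered, which gave 29 ends, 18 rests and 10 genes with both. A further 6 genes had covered CpGs but too few in either place. The 29 ends held 3 to 60 CpGs, with a median of 10, and 254 to 13431 reads per library. Zfp942 and Zfp943 lie head to head and share the same 19 end CpGs, so that the 29 ends of genes are 28 separate measurements.

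The ends were mostly unmethylated, and of the 5 that entered the test for a difference between the groups none passed. In 24 of 29 (82.8%) the mean level was under 5%, and in 17 it was under 1%. With the end shared by Zfp942 and Zfp943 counted once, 23 of 28 (82.1%) were under 5% and 16 under 1%. A level under 5% was found in 81.2% of the ends of 234 other genes with a Zfp number and 73.5% of all 14002 covered ends. The mean over the 29 ends was 8.58% ± 0.595 in WT and 8.59% ± 0.380 in KO (n = 3 each, ± SD), and over the 28 separate ends 8.89% ± 0.617 and 8.89% ± 0.399. Over all covered ends it was 12.9% ± 0.181 and 13.4% ± 0.0494.

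**Figure D1:**
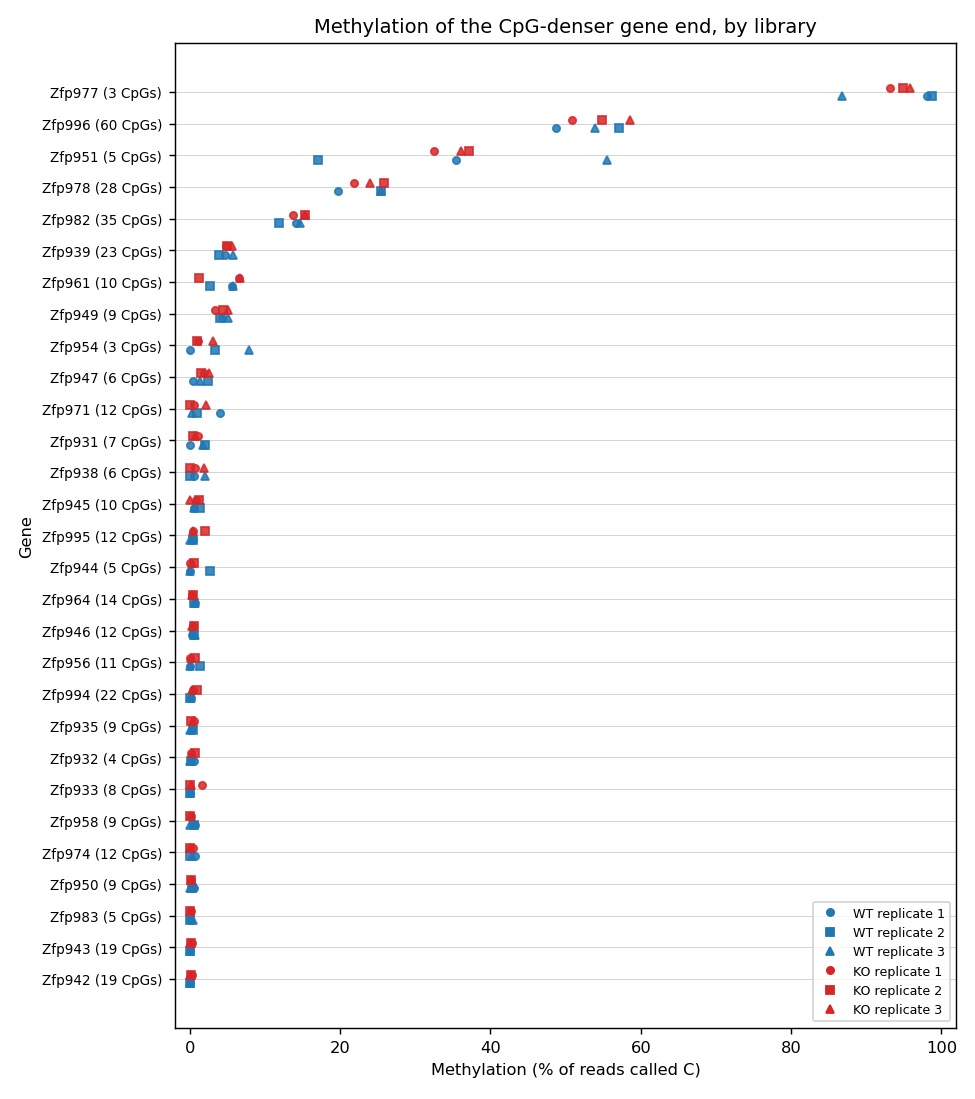
Methylation of the CpG-denser end of 29 genes (horizontal axis, percent of reads called C), with genes on the vertical axis ordered by mean level and the number of covered CpGs in brackets. Each point is a library, blue for WT and red for KO, with a different shape per replicate number; 24 genes sit under 5%, and the other 5 spread from 14.2% to 94.6%.

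Zfp942 and Zfp943 had the lowest ends: their shared CpGs gave 0 methylated reads in each WT library, out of at least 2526 reads, which allows a level of up to 0.119%. The KO libraries gave 0.294%, 0.185% and 0%. Zfp983 was at 0%, 0% and 0.459% in WT and 0.140%, 0% and 0% in KO, again with overlapping groups. Such limits cover counting error only, since reads that are PCR copies of the same molecule cannot be told from independent ones. The 9 ends of the chromosome 17 cluster, these 3 included, ran from 0.0798% to 1.7% with a median of 0.468%, or 0.527% with the shared end counted once. In Zfp932 the end was at 0.219% ± 0.258 in WT and 0.376% ± 0.322 in KO (n = 3 each, ± SD).

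Among the low ends the largest differences were small. Zfp954, with 3 CpGs, stood at 0%, 3.33% and 7.87% in WT and 1.07%, 0.917% and 3.06% in KO, a difference of -2.05 points (KO minus WT, as in all differences below). Zfp971 was at 4.07%, 0.919% and 0.319% in WT and 0.480%, 0% and 2.11% in KO, and its high WT value is that of replicate 1. Zfp944 was at 0%, 2.73% and 0% in WT against 0%, 0.504% and 0.281% in KO. Here WT replicate 2 alone lies above the KO libraries. Zfp995 was at 0.353%, 0.380% and 0% in WT and 0.471%, 2.01% and 0.359% in KO, and Zfp947 at 0.441%, 2.41% and 1.38% in WT and 1.90%, 1.54% and 2.51% in KO. In these 5 genes the groups overlapped. Zfp939, a gene of chromosome 7 with 23 end CpGs, lay just under the 5% limit, at 4.62%, 3.84% and 5.67% in WT and 4.82%, 4.96% and 5.58% in KO.

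The groups did not overlap at the ends of Zfp994 and Zfp964, which are named after their values were seen and lay below the 5% limit for testing. Zfp994 (22 CpGs) was at 0.162%, 0% and 0.170% in WT and 0.476%, 0.919% and 0.278% in KO, a difference of 0.447 points. Zfp964 (14 CpGs) was at 0.670%, 0.543% and 0.631% in WT and 0.323%, 0.450% and 0.300% in KO, a difference of -0.257 points. These 2 differences have opposite signs and are under 1 point. Each is 1 of 24 ends under 5% (4.17%), while over all 10287 covered ends under 5% the groups did not overlap with KO higher in 8.82% and with KO lower in 2.59%.

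Differences were tested with a quasi-binomial model of methylated and unmethylated reads whose dispersion was moderated across all features. Only features with a mean level of 5% to 95% entered, and a call needed a Benjamini-Hochberg adjusted p under 0.05 and group means at least 10 points apart. Of the 5 ends in that range, 0 were called, against 5 of 3593 over all genes (0.139%). The counts at an unadjusted p under 0.05 were 0 of 5 against 12.6%. When all covered ends were put through the same model, 0 of 29 were called, beside 4 of all 14002. At an unadjusted p under 0.05 there was then 1 of 29, beside 1140 of 14002. With limma on log2 ratios 0 of all 3593 ends were called, so its count of 0 here says nothing about these genes. No tested end had groups that did not overlap (higher in KO in 14.9% and lower in 2.64% of all tested ends). The lowest adjusted p among the 5 was 0.714.

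These 5 ends were the partly or highly methylated ones. Zfp996, on chromosome 12, had 60 covered CpGs at its start and was at 48.7%, 57.1% and 53.9% in WT and 50.8%, 54.8% and 58.6% in KO. Its means of 53.2% ± 4.25 and 54.7% ± 3.87 (n = 3 each, ± SD) differ by less than the spread between libraries, with an odds ratio of 1.04 (95% interval 0.844 to 1.28). Zfp978, in the chromosome 4 cluster, had 28 CpGs at 19.7%, 25.4% and 25.4% in WT and 21.8%, 25.8% and 24.0% in KO, with an odds ratio of 1.03 (95% interval 0.851 to 1.25). Zfp982, from the same cluster, had 35 CpGs at 14.1%, 11.8% and 14.6% in WT and 13.8%, 15.3% and 15.4% in KO. Its difference was 1.32 points, with overlapping groups and an odds ratio of 1.12 (95% interval 0.898 to 1.39; adjusted p = 0.714).

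The other tested ends rested on few CpGs and varied more. Zfp951, on chromosome 5, had 5 end CpGs at 35.4%, 17.1% and 55.5% in WT and 32.5%, 37.1% and 36.0% in KO. The WT libraries spanned both sides of all KO libraries, with an SD of 19.2 points against 2.39, and the odds ratio of 1.04 had a 95% interval of 0.478 to 2.27. It adds reads over the libraries of a group, whereas the difference averages libraries, and here their directions differ. Leaving out WT replicate 3 turned the difference from -0.764 to 8.99 points, which did not pass either (adjusted p = 0.412). Zfp977, the methylated start shown above, had 3 CpGs at 98.1%, 98.8% and 86.8% in WT and 93.1%, 94.9% and 95.8% in KO. WT replicate 3 is the lowest of its 6 libraries, the means are 94.6% in both groups, and the 95% interval of the odds ratio is 0.215 to 3.79.

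Levels were low around the annotated start in both groups. Over the 87 positions in the last 250 bases before a start the median was 0% in WT and 0.175% in KO, and over the 169 positions from 0 to 250 bases after it 0% and 0.453%. In the 250 bases further upstream, 19 positions of 5 genes had medians of 0% in both groups, and all 19 were under 5%. Over the next 250 bases downstream, 81 positions had medians of 7.41% and 8.06%. In the furthest bin, which began beyond 5000 bases and had an upper limit, 123 positions had medians of 92.5% and 92.8%. Most covered positions of Zfp993 lay past that limit and are in no bin. They were less methylated: its 2 fullest 1 kb tiles, of 66 and 47 positions, were at 35.0% and 59.3% in WT. In KO these tiles were at 28.7% and 61.3%. The CpGs shared by Zfp942 and Zfp943 are counted once for each gene, by the distance from its own start. Most of the 19 positions further upstream are such shared CpGs. These bins pool CpGs of 1 to 23 genes and describe levels only. The 81 positions came from 8 genes.

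**Figure D2:**
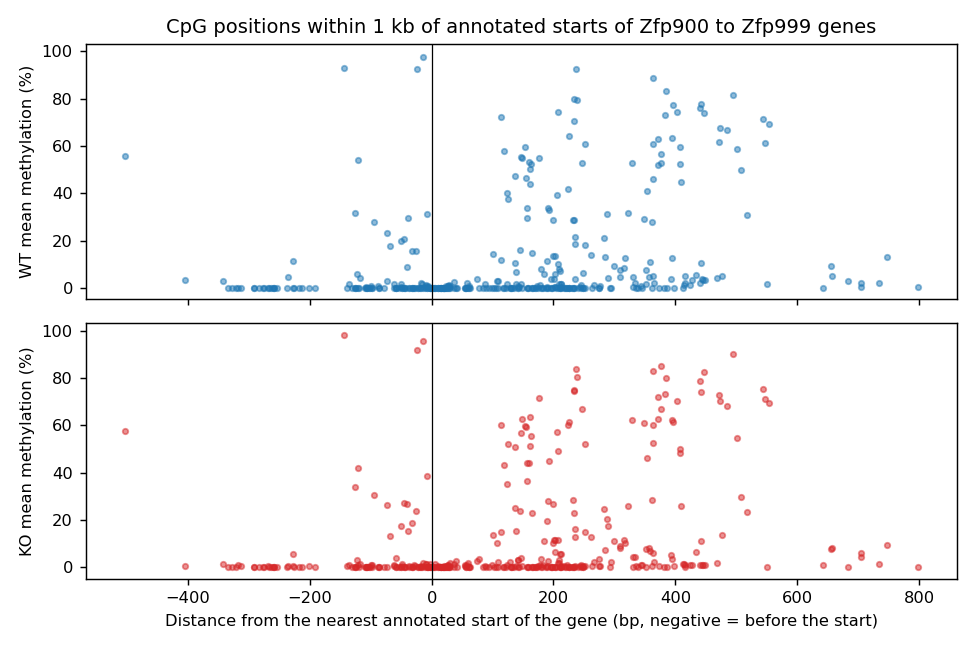
Mean methylation in WT (top) and KO (bottom) of CpG positions against the distance in bases from the nearest annotated start of the gene, negative before the start, within 1 kb. Each point is a CpG position of a gene, so the CpGs shared by Zfp942 and Zfp943 appear once for each of them. Most points around the start lie near 0%, and intermediate points lie mainly from about 100 bases after it onwards in both groups, with a smaller number before it.

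The rest of the genes was highly methylated in both groups. Of 18 rests with at least 3 CpGs, 15 (83.3%) were over 80%, against 52.7% of 207 other numbered Zfp genes and 46.2% of all 13164 covered rests. The mean over the 18 was 82.2% ± 1.37 in WT and 82.4% ± 0.639 in KO (n = 3 each, ± SD), 0.205 points apart. Over all genes the rests averaged 61.7% ± 0.626 and 63.7% ± 0.134, a difference of 2.02 points, and over the other numbered Zfp genes 61.5% ± 0.199 and 63.0% ± 0.325. The means of these 18 rests overlapped between the groups of libraries, while over all genes the lowest KO library, at 63.6%, lay above the highest WT library, at 62.1%.

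Of the 13 rests that could be tested, 0 were called, against 3 of 11623 over all genes (0.0258%). At an unadjusted p under 0.05 there were 0 of 13 against 17.8%. With limma on log2 ratios there was 1 of 13 at that cut, beside 1823 of all 11623. Its calls were 0 among these rests and also 0 over all rests. The KO mean was above the WT mean in 6 of 13 (46.2%), against 75.6% of all tested rests and 73.7% of 152 tested rests of other numbered Zfp genes. The median difference over the 13 was -0.395 points, beside 1.74 over all tested rests. The difference between these medians was not tested. Groups did not overlap in Zfp961, higher in KO (7.69% of the 13, against 21.4% of all tested rests), and in Zfp982, lower in KO (7.69% against 1.75%).

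**Figure D3:**
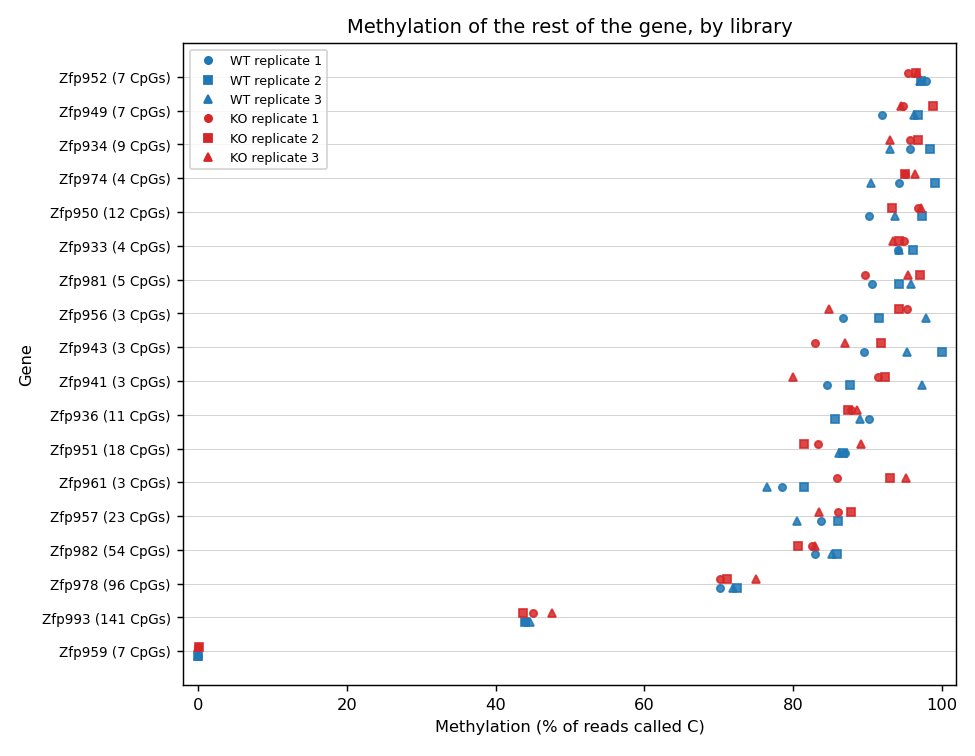
Methylation of the rest of 18 genes (horizontal axis, percent of reads called C), with genes ordered by level and the number of covered CpGs in brackets. Each point is a library, blue for WT and red for KO, with a shape per replicate number. The KO points of Zfp961 lie to the right of its WT points and those of Zfp982 narrowly to the left, and in 15 genes the mean is over 80%.

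Zfp961, on chromosome 8, gave the largest difference. Its rest, 3 CpGs in the tile chr8:71957001-71958000, was at 78.5%, 81.5% and 76.5% in WT and 86.0%, 93.1% and 95.2% in KO. The difference of 12.6 points rests on 68 to 243 reads per library and did not pass, with an odds ratio of 2.73 (95% interval 0.709 to 10.5; adjusted p = 0.386). Most of it came from 1 CpG, 6283 bases after the start, at 56.1% in WT and 90.4% in KO. The CpG at 6429 bases was at 86.9% and 85.2%, and that at 6461 bases at 97.8% and 100%. Its unmethylated start, the first sequence above, belongs to an end of 10 CpGs at 4.66% ± 1.69 in WT and 4.84% ± 3.12 in KO (n = 3 each, ± SD). The end was thus low in both groups while the rest was high in both.

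Zfp982, with 54 CpGs and 7664 to 9173 reads per library, was at 83.0%, 85.9% and 85.2% in WT and 82.6%, 80.7% and 83.0% in KO. The groups were only just apart, with the lowest WT library at 83.014% and the highest KO library at 82.965%. The difference of -2.63 points had an odds ratio of 0.833 (95% interval 0.692 to 1.001) and did not pass (unadjusted p = 0.0508, adjusted p = 0.283). Across the gene the end and the rest had differences of opposite sign, 1.32 and -2.63 points. The next largest difference, -7.65 points in Zfp943, came from 3 CpGs with 65 to 148 reads, at 89.6%, 100% and 95.4% in WT and 83.0%, 91.9% and 87.1% in KO, with overlapping groups and an odds ratio interval of 0.0615 to 2.59.

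The remaining named rests differed by at most 2.30 points, with overlapping groups. Zfp957 (23 CpGs, chromosome 14) was at 83.8%, 86.1% and 80.5% in WT and 86.1%, 87.8% and 83.5% in KO. Zfp951 (18 CpGs) was at 87.0%, 86.7% and 86.2% in WT and 83.3%, 81.5% and 89.2% in KO, so that its KO libraries lie on both sides of the WT libraries. Zfp950 (12 CpGs, chromosome 19) differed by 1.95 points, with 93.8% ± 3.56 in WT and 95.8% ± 2.15 (n = 3 each, ± SD), which is less than the spread. Of its 21 CpGs, 11 also lie within 1 kb of the gene Grk5. Zfp941 (3 CpGs, chromosome 7) was at 89.9% ± 6.69 and 88.0% ± 6.91. Zfp952 (7 CpGs, chromosome 17), named after its values were seen, was too high to be tested and had groups that did not overlap, at 98%, 97.2% and 97.0% in WT and 95.5%, 96.5% and 96.8% in KO. It is 1 of 4 rests over 95%, and over all 621 covered rests over 95% the groups did not overlap with KO lower in 5.15%.

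Zfp959 was the only rest under 5%. Its 7 CpGs were at 0% in every library but KO replicate 2, at 0.0837%. They lie just after a start in the promoter table that is more than 1 kb inside the gene span, and so fell outside the window of the annotated end.

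A few genes held most of the intermediate CpGs. In DNA from many cells such a level can be a mixture of cells, of alleles or of molecules, which cannot be told apart here. Of the 793 positions, 268 (33.8%) had a mean level of 20% to 80%, against 10.1% of all autosomal positions, and 241 of the 268 (89.9%) came from Zfp993, Zfp978 and Zfp996. Zfp993, in the chromosome 4 cluster, had 116 of its 141 positions in this range, Zfp978 67 of 124 and Zfp996 58 of 61. The rest of Zfp993 was at 43.9%, 43.9% and 44.6% in WT and 45.0%, 43.6% and 47.6% in KO, which overlap, with an odds ratio of 1.05 (95% interval 0.943 to 1.17). That of Zfp978, with 96 CpGs, was at 71.5% ± 1.13 and 72.1% ± 2.52 (n = 3 each, ± SD). Zfp993 is annotated over 479 kb, and 113 of its 141 covered positions lay in 2 tiles 10 kb apart, which hold 66 and 47 positions and begin 419 kb after the gene's start. No position at its start was covered. With 373 positions the chromosome 4 cluster gave 47.0% of all positions, and KO was above WT in 160 of its 318 tested positions (50.3%), against 59.0% over all tested autosomal positions.

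Cut into 1 kb tiles with at least 3 CpGs, the genes gave 78 tiles, of which 47 were tested and 0 called, against 555 of 81334 over the autosomes (0.682%). At an unadjusted p under 0.05 there were 2 of 47 (4.26%) against 11.6%. With limma on log2 ratios there was 1 at that cut, and 0 were called, here as over all tiles. Other numbered Zfp genes had 8 of 560 tiles called. KO was above WT in 24 of 47 (51.1%) against 64.2%. Groups did not overlap with KO lower in 6 of 47 tiles (12.8%, against 3.51% of all tested tiles) and with KO higher in 1 (2.13%, against 12.8%).

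**Figure D4:**
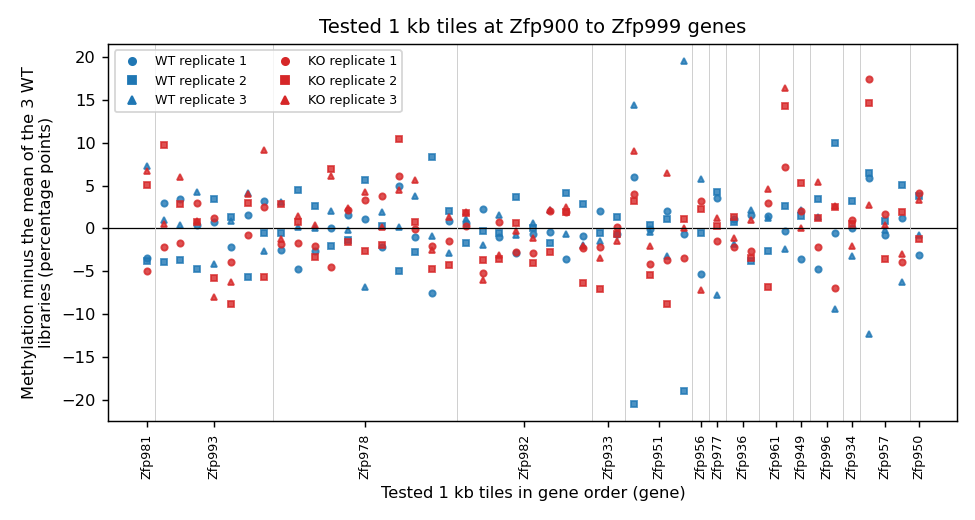
Methylation of each tested 1 kb tile in each library, as the difference in percentage points from the mean of the 3 WT libraries (vertical axis), with the 47 tiles in gene order. Blue points are WT, red points are KO, and shapes are replicate numbers; in most tiles the colours mix, and the widest WT spread is in tiles of Zfp951.

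The tile with the smallest p lay in Zfp993 (chr4:146932001-146933000, 66 CpGs). It was at 32.9%, 36.4% and 35.9% in WT and 31.2%, 26.3% and 28.8% in KO, a difference of -6.31 points that did not pass (unadjusted p = 0.00134, adjusted p = 0.0943). The other tile at an unadjusted p under 0.05, in Zfp978 (chr4:147267001-147268000), had the opposite sign, at 7.02 points (adjusted p = 0.423). The remaining tiles whose KO libraries all lay below WT were 3 in Zfp982, 1 in Zfp951 and 1 beside Zfp933. A tile was assigned to a gene where it overlapped the span with its 1 kb flanks, and the 4 CpGs of the tile beside Zfp933 (chr4:147821001-147822000) lie outside those flanks. Without it, KO was lower in 5 of 46 tiles (10.9%). In Zfp982 the tile chr4:147467001-147468000 (10 CpGs) was at 93.4%, 90.8% and 89.2% in WT and 85.9%, 87.4% and 85% in KO. The other 2 tiles of Zfp982 differed by -2.65 and -3.56 points, the tile beside Zfp933 by -4.21 and that of Zfp951 by -3.88. The 1 tile with KO above WT is that of Zfp961 given above. Of the 47 tested tiles 29 were on chromosome 4, as were 5 of the 6 lower ones, and tiles of a gene are not independent of each other.

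Of the 793 single positions 465 were tested and 0 called, against 1482 of 514081 (0.288%). At an unadjusted p under 0.05 there were 26 (5.59%, against 8.71%), of which 10 were higher and 16 lower in KO. Of the 26, 6 were in Zfp993, all lower in KO, and 7 in Zfp978, 3 of them higher. Positions of a gene are not independent of each other, and the split was not tested. With limma on log2 ratios there were 11 at that cut, and 0 were called, here as over all positions. Groups did not overlap with KO higher in 27 positions (5.81%, against 8.37%) and with KO lower in 22 (4.73%, against 3.97%). The 4 positions with an unadjusted p under 0.005 are named after their values were seen. In Zfp996 position 18387840 of chromosome 12 was at 21.7%, 33.8% and 31.4% in WT and 49.7%, 68.2% and 65.3% in KO, a difference of 32.1 points (adjusted p = 0.146). In Zfp993 position 146942109 of chromosome 4 was at 84.8%, 90% and 77.3% in WT and 45.9%, 45.8% and 68.6% in KO (adjusted p = 0.250). The 2 in Zfp978 pointed in opposite directions: position 147187821 differed by -14.2 points and position 147275937 by 17.3 points (adjusted p = 0.127 and 0.159). The latter was at 21.3%, 21.8% and 35.9% in WT and 41.2%, 46.6% and 43.1% in KO, and without WT replicate 3 it passed, with a difference of 22.1 points (adjusted p = 0.0253).

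The strands of a CpG mostly had similar levels. Of 117 CpGs with both cytosines covered, 3 (2.56%) differed by more than 50 points, against 2.04% of 252794. These were 2 in Zfp951 and 1 in Zfp957, and each had a strand near 0% and a strand above 91% in both groups.

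The promoters, taken as 250 bases before to 50 after each start in the RefSeq table, were available for 55 of the 62 genes (63 promoters). They held a median of 8 CG dinucleotides, against 16 in 300 promoters of other numbered Zfp genes and 14 in all 20085. CCGG, the MspI site, which reads the same on both strands, was present in 66.7%, 75% and 63.5% of them. A promoter can thus hold the site and still have no covered CpG, as in Zfp966 and Zfp967, whose promoters are identical. Those of Zfp968 and Zfp973 were 99.7% identical, and those of Zfp965 and Zfp971 97.0%.

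Promoter coverage is described here beside promoter similarity, with no test. For 14 genes the most similar promoter of another gene was at least 90% identical. Of these, 11 had a CCGG in the promoter, and 8 of the 11 had no covered CpG there. Apart from Zfp943, all of these 8 lie in the chromosome 2 cluster and are near-copies, so they are not independent cases. Zfp972 of that cluster, at 76.7% identity, had a CCGG and no covered promoter CpG as well. Of 41 genes with a lower identity, 26 had a CCGG and 9 of the 26 had no covered CpG. The wider window of the denser end had at least 3 covered CpGs in 5 of the 14 genes and in 23 of the 41. In Zfp971, at 97.0% identity, it held 12, none of them within the promoter. Whether identical sequence, through reads that align to several places, sets the coverage was not tested.

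**Figure D5:**
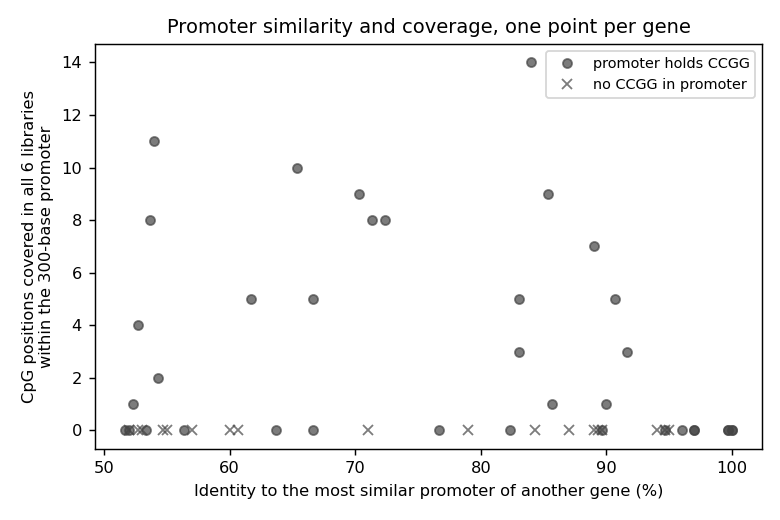
Number of CpG positions covered in all 6 libraries within the 300-base promoter (vertical axis) against the identity in percent of that promoter to the most similar promoter of another gene (horizontal axis). Each of 55 points is a gene, with filled circles where the promoter holds CCGG and crosses where it does not; above 95% identity all points lie at 0.

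A list of 21 gene symbols, of which 20 were in the gene table, covered the silencing machinery that these proteins recruit. It also held 3 other KRAB zinc finger genes, Zfp57, Zfp809 and Zfp568. Ends of the listed genes were low, from 0.0779% to 6.33% over 16 covered ends, with Trim28, the corepressor itself, at the lower limit. The only tested end, that of the heterochromatin protein gene Cbx1, was at 4.55% ± 2.48 in WT libraries and 8.12% ± 1.41 in KO libraries (n = 3 each, ± SD), with an adjusted p of 0.374. Of 10 tested rests 0 were called (0.0258% over all tested rests), 4 had an unadjusted p under 0.05 (17.8% over all), and the KO mean was higher in 9 (75.6% over all). The median difference was 3.41 points, beside 1.74 over all tested rests. By smallest p these were Chd3, a chromatin remodeller of the NuRD complex, by 5.83 points (adjusted p = 0.118), the maintenance methyltransferase gene Dnmt1 by 3.05 (0.123), the histone deacetylase gene Hdac1 by 5.62 (0.150), and Chd4, another NuRD remodeller, by -8.86 (0.198).

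In the libraries as a whole, reads over CpGs numbered from 174375503 to 203863392 and mean coverage was 101 to 125 reads per position. As a check of the labels, 6 CpG positions of Tet2, from 133486189 to 133486297 on chromosome 3, were listed in every WT library and in no KO library, and 0 the other way round. The ends of B cell markers were low where covered (4 of 6 genes, 0.225% to 3.49%), and the covered end of the T cell gene Lck was at 95.95%. The rest of Lck was lower, at 23.4% ± 2.84 in WT and 33.1% ± 1.85 in KO (n = 3 each, ± SD), with an adjusted p of 0.101. Among myeloid markers the Csf1r end was at 85.2% and that of Cd14 at 0.207%, and no end of an endothelial marker had 3 covered CpGs. The rests of the endothelial genes Pecam1 and Cdh5 were at 83.5% and 71.3% and differed by 6.39 and 7.85 points (adjusted p = 0.144 and 0.241). The mean level of all covered CpGs was 32.9% ± 0.416 in WT and 33.6% ± 0.149 in KO (n = 3 each, ± SD), and at the 793 positions it was 42.7% ± 0.755 and 42.9% ± 0.929.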

How the data were processed

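DNA methylation was measured in 6 libraries, 3 WT and 3 KO. Reads were aligned with Bismark to GRCm38, per the submitters' processing notes; the version is not given in the sources used here. Per the file headers, the deposited values are the coverage of each CpG position, which is a read count, and the percent of those reads called C or T. The lowest deposited coverage count was 10. Counts of methylated reads were recovered from coverage and percent and came out whole for 100% of values, within the 3 decimals of the percent values.

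Positions covered by at least 10 reads in all 6 libraries were used. Reads were added over gene ends, gene rests and 1 kb tiles with at least 3 CpGs. Genes were the autosomal protein-coding ones in RefSeq's GRCm38.p6 gene table, and the genes described were matched by symbol. Each feature with a mean level of 5% to 95% was tested with a quasi-binomial model on 4 residual degrees of freedom, its dispersion moderated by limma's empirical Bayes procedure (coded in Python 3.11.15 with numpy 2.4.6 and scipy 1.17.1, tested on simulated data and against limma 3.58.1). Adjusted p-values run over all features of a kind. Odds ratios compare KO with WT on reads added over the libraries of each group, with 95% intervals. Levels are unweighted means of libraries. Promoter identity was computed with edlib 1.3.9.post1 as edits over the 300 bases.

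Named were the 8 genes with the largest differences at the end and the 8 over the rest, the 6 highest and 3 lowest ends, the 3 widest spreads within a group, any called gene, and up to 4 genes of the silencing list by p. The genes and lists were chosen with earlier results of these data known. Nothing in the labels says that replicates came from separate mice, and p-values therefore reflect only how far these libraries differ, which may be technical. Alternatives were another dispersion, limma on log2 ratios with an offset of 1, all covered features, a replicate block, each library left out, a coverage of 20, and other windows and CpG minimums.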

Additional observations from a re-analysis of the deposited data

How the results depend on the processing

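Among the genes described, the count of called ends, rests, tiles and CpGs was 0 under 48 of 49 alternatives, 1 of them (tiles restricted to those with a CpG inside the flanks) added after the data had been seen. The exception was 1 CpG, that of Zfp978 named above, without WT replicate 3. The counts of called CpGs thus ran from 0 to 1 as each library was left out. The counts over all features, which serve as the background, depended more on the choices. Called ends were 5, with 0 to 11 over the alternatives. Called rests were 3, with 114 without WT replicate 3 and 0 to 7 otherwise. Called tiles were 555, with 118 to 1149 as each library was left out (the latter without WT replicate 3), 907 with the replicate block, 43 when all covered tiles were tested, and 0 without moderation or with limma on log2 ratios. Called CpGs were 1482, with 538 to 3568 as each library was left out, 1790 at a coverage of 20, 231 when all covered CpGs were tested, 27 without moderation, and 0 with limma on log2 ratios or the replicate block. The cause was not tested. Over 81334 tiles the deviations of same-numbered WT and KO libraries correlated at 0.0231, 0.00266 and 0.00356. Those of differently numbered libraries ran from -0.0202 to 0.015, the latter for WT replicate 3 with KO replicate 2. Values this close to each other cannot tell whether the replicate numbers pair the libraries. With the replicate block 0 ends, rests, tiles and CpGs of these genes were called. For 25 single differences of named genes, 351 alternative values included 27 of opposite sign, 21 with a library left out and 6 with CpGs weighted equally, and the lowest adjusted p was 0.193. For ends under 5% such values were at most 0.794 points in size. Among the tested ends and rests that changed sign as each library was left out, the end differences ran from -1.52 to 1.39 points in Zfp978, -0.793 to 3.42 in Zfp996, -10.2 to 8.99 in Zfp951 and -3.85 to 2.17 in Zfp977. The rest differences ran from -0.851 to 1.52 in Zfp978 and -4.57 to 2.05 in Zfp941. With CpGs weighted equally the rest of Zfp993 differed by -1.02 points instead of 1.27, that of Zfp951 by 0.241 instead of -1.96, and the ends of Zfp951 and Zfp978 by 3.63 and -0.147 instead of -0.764 and 0.373. Features of 3 CpGs with under 300 reads, such as the rests of Zfp961, Zfp943 and Zfp941, have odds ratio intervals that reach from below to above 1. For Zfp961 the unadjusted p was 0.106, and 0.026 without moderation and 0.0061 with limma on log2 ratios (adjusted p = 0.386, 0.316 and 0.193).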
